A study of Mus musculus with 8 samples.

Results

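Regulatory T cells (Tregs) that expressed the transcription factor gene Foxp3 were examined in single-cell RNA sequencing data of CD45+ immune cells from mouse mammary tumors. The members were chosen by measured values, the UMIs of a few genes in each cell. A cell counted as a Treg if it passed the study's own limits on cell quality (500 to 6000 genes and under 10% mitochondrial UMIs) and had at least 2 unique molecular identifiers (UMIs, 1 for each RNA molecule captured) of Cd3d, Cd3e and Cd3g together, at least 1 of Foxp3, at most 1 of Cd8a and Cd8b1 together and at most 1 of the macrophage gene Csf1r. These limits gave 213 Tregs among 10605 cells, or 2.01% of the CD45+ cells and 28.6% of the 746 T cells. The other T cells were 353 CD8-negative T cells without a Foxp3 UMI and 177 CD8 T cells, and 3 cells with both Cd8 and Foxp3 were in no class. The genes that made the gate were left out of every test of single genes, and Csf1r entered only the sum of the macrophage markers given below.

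The tumors grew in the mammary fat pad from E0771 cells, a mammary tumor line of C57BL/6 mice, and were taken 18 days after implantation. Parental E0771 tumors came from 2 mice. The lines E0771-Res1 and E0771-Res2, with 3 mice each, had been established from E0771 tumors that came back after paclitaxel and an antibody against PD-1, and each is 1 line, so that a feature of the line and resistance itself cannot be told apart. No treatment of the mice sampled here, and no age, is named in the labels. The mice were tagged with oligonucleotides, pooled and sequenced together, and no cell barcode was shared between mice.

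Tregs restrain the activity of other lymphocytes and preserve tolerance to self. Foxp3 fixes their identity, the high-affinity interleukin-2 (IL-2) receptor with its α chain Il2ra lets them take up IL-2, and the inhibitory receptor Ctla4 removes costimulatory ligands from antigen-presenting cells. In tumors, Tregs often carry an activated program with the costimulatory receptors Tnfrsf4 (OX40), Tnfrsf18 (GITR), Tnfrsf9 (4-1BB) and Icos, and their number relative to CD8 T cells is a common measure of local suppression. On the mouse build GRCm38 (mm10), Foxp3 lies at chrX:7573644-7595245, Ctla4 at chr1:60887000-60915832, Icos close to it at chr1:60977927-61000320, Ikzf2 at chr1:69531214-69687245, and the neighbours Tnfrsf4 and Tnfrsf18 at chr4:156013843-156016612 and chr4:156026164-156028895.

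The 2 parental mice gave 25 and 8 Tregs, the E0771-Res1 mice 57, 13 and 24, and the E0771-Res2 mice 25, 35 and 26. The second parental mouse, replicate 3, thus had the fewest. The median Treg held 4625 to 8982 UMIs, depending on the mouse, against 4472 to 8138 in other CD8-negative T cells and 8481 to 13727 in CD8 T cells. All Tregs of a mouse together gave 67008 to 502078 UMIs.

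Many Tregs passed the gate on 1 Foxp3 molecule. Of the 213 cells, 93 (43.7%) had 1 Foxp3 UMI, 55 had 2 and 65 had 3 or more. Among all 397 cells with a Foxp3 UMI, 53.7% were inside the gate. Of the others, 112 had fewer than 2 Cd3 UMIs, 15 of them with exactly 1, and 69 had enough Cd3 but 2 or more Csf1r UMIs, 18 of them with exactly 2. Just inside the gate, 13 Tregs had exactly 2 Cd3 UMIs, 23 had 1 Cd8 UMI and 51 had 1 Csf1r UMI. A Foxp3 UMI was found in 36 of 3433 cells without Cd3 and with 2 or more Csf1r UMIs (1.05%) and in 3 of 180 T cells rich in Cd8 (1.67%), 2 kinds of cell that should lack it.

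Genes outside the gate were compared with the name. With each cell thinned to 2000 UMIs, Ctla4 was detected in 67.6% of Tregs, 21.9% of other CD8-negative T cells, 22.2% of CD8 T cells and 1.4% of myeloid cells (without thinning, 84.5% of Tregs). Ikzf2, which encodes the Treg factor Helios, was detected in 75.4% of thinned Tregs and 26.9% of other CD8-negative T cells, and Tnfrsf4 and Tnfrsf18 in 80.7% of Tregs each. A Cd4 UMI was present in 141 Tregs (66.2%) before thinning. Genes of γδ T cells, B cells, erythroid cells and tumor or stroma summed, list by list, to at most 65.9 counts per 1000000 UMIs (CPM) in the Tregs of any mouse, those of dendritic cells to 29.8 to 102 CPM, and the γδ genes Tcrg-C1 and Cd163l1 were at 0 in all 8 mice. The macrophage gene Lyz2, in contrast, was detected in 66.2% of thinned Tregs, 78.1% of other CD8-negative T cells and 48.9% of CD8 T cells, against 96.8% of myeloid cells.

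The first question was whether Tregs were more frequent in resistant tumors. Of the CD45+ cells, 2.23% and 1.32% were Tregs in the parental mice, while the E0771-Res1 mice had 2.82%, 2.15% and 2.56% and the E0771-Res2 mice 1.36%, 2.31% and 1.33%. The groups overlapped, and the means of 2.09% ± 0.622 (SD, n = 6) in resistant and 1.77% ± 0.641 (n = 2) in parental tumors were not separated (exact permutation test over 28 splits, two-sided p = 0.5, 0.667 after Benjamini-Hochberg adjustment over 4 measures). As a share of CD8-negative T cells, Tregs were likewise at 36.9% ± 5.72 in resistant and 38.2% ± 4.87 in parental tumors (exact permutation p = 0.786).

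Relative to CD8 T cells, Tregs were more numerous in every resistant tumor. The parental mice had 0.532 and 0.533 Tregs for each CD8 T cell, the E0771-Res1 mice 1.24, 1.44 and 1.26, and the E0771-Res2 mice 3.12, 1.94 and 1.73. The 6 resistant tumors averaged 1.79 ± 0.708 against 0.533 ± 0.001 in the parental ones, with no overlap. The exact permutation p of 0.0714 (adjusted 0.143) is the smallest that this two-sided test, which doubles the smaller tail, gives over 28 splits, so it cannot reach 0.05 here. Counting error was wide: the 95% exact (Clopper-Pearson) interval was 0.314 to 0.882 for the first parental mouse, with 25 Tregs and 47 CD8 T cells, and 1.37 to 8.02 for the highest, E0771-Res2 replicate 1, with 25 Tregs and 8 CD8 T cells. Intervals of this kind cover counting error only.

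The CD8 T cells are given for comparison, with no test. Their share of CD45+ cells reached 4.19% and 2.48% in parental mice, whereas the E0771-Res1 mice had 2.28%, 1.49% and 2.03% and the E0771-Res2 mice 0.434%, 1.19% and 0.765%. The groups did not overlap, with means of 1.36% ± 0.713 in resistant and 3.33% ± 1.21 in parental tumors, while the share of Tregs among CD45+ cells overlapped. Among all T cells, Tregs made up 22.9% and 21.1% in parental and 24.8% to 33.3% in resistant tumors, with means of 22.0% ± 1.33 and 29.7% ± 2.84 (exact permutation p = 0.0714, adjusted 0.143). Each line on its own stayed above the parental tumors for both measures, with an exact permutation p of 0.2, the smallest that the same test gives for 3 mice against 2. A mouse is the replicate throughout, and a share of sequenced cells is not a number of cells per tumor.

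**Figure D1:**
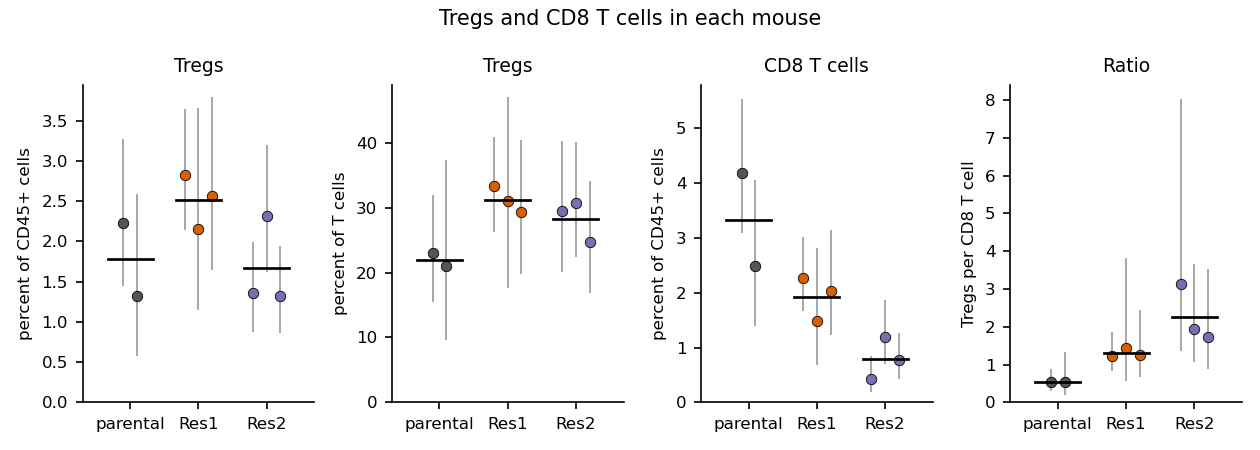
Tregs and CD8 T cells in each mouse: dots are mice, grey bars 95% exact intervals for counting error and black lines group means; the y axes give the share in percent of CD45+ cells or of T cells, and the number of Tregs for each CD8 T cell. Parental tumors lie below all 6 resistant tumors in the ratio (0.532 and 0.533 against 1.24 to 3.12) and above all of them in CD8 T cells, while the Treg share of CD45+ cells overlaps.

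The second question was how Tregs differed from the other CD8-negative T cells of the same tumors, with UMIs summed by mouse and class and the mouse as a block in edgeR. Of 3212 genes tested, 506 (15.8%) passed an adjusted p of 0.05, of which 235 (7.32%) were higher and 271 (8.44%) lower in Tregs. Among called genes that averaged a log2 CPM of 5 or more and had the same sign in all 8 mice, those that rose most were genes of the activated Treg program together with histone and division genes (Hist1h1b, 2.13 ± 0.34; Hist1h2ae, 2.03 ± 0.47; Stmn1, 1.76 ± 0.47), Sdcbp2 and Neb, and the 10 that fell most were Xcl1, Klra7, Chil3, Prf1, Bcl2, Ctsw, Ly6c2, Klrk1, Cxcl10 and Lyz2. Called genes outside these limits could differ by more, such as the granzyme gene Gzmc (−4.51) and the histone gene Hist1h2ap (2.28), which were singled out after their values were seen.

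The parental mice had 896 and 746 CPM of Ctla4 in Tregs, the E0771-Res1 mice 679, 1124 and 1182 CPM and the E0771-Res2 mice 703, 779 and 743 CPM, against 106 to 305 CPM in the other CD8-negative T cells of these mice. The lowest Treg value was above the highest value of the other class. The log2 fold change was 1.96 ± 0.14 (SE, 8 mice, edgeR quasi-likelihood test, Benjamini-Hochberg adjusted p = 2.79e-08). Tnfrsf4 (1353 ± 227 CPM against 317 ± 114, SD over 8 mice, log2 fold change 2.06) and Tnfrsf18 (1045 ± 136 CPM against 299 ± 71.5, log2 fold change 1.74) did not overlap either. Ikzf2 rose by 1.50 ± 0.11 on the log2 scale, from 272 ± 86.2 to 790 ± 183 CPM.

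Of the 14 tested genes of a Treg signature list, 8 were higher and 1 was lower, with a median log2 fold change of 1.10 beside 0.01 over all genes. Il2ra rose by 1.94 ± 0.17 on the log2 scale, from 49.4 ± 13.3 to 204 ± 74.0 CPM. Tnfrsf9, Izumo1r (folate receptor 4) and Nt5e (CD73, which makes adenosine) rose too. Nrp1, the coreceptor often used to mark Tregs of thymic origin, went the other way, with 26.1 ± 16.6 CPM in Tregs and 48.3 ± 14.8 CPM in the other cells. A list of genes of effector and tumor Tregs had 10 of 14 tested members higher and none lower, with a median of 0.96. Icos (423 ± 131 against 123 ± 53.5 CPM), the decoy interleukin-1 receptor Il1r2 (185 ± 55.2 against 76.4 ± 38.4 CPM), the chemokine receptor Cxcr3 and the factors Batf, Maf, Rora and Gata3 were among them. Ccr8, a receptor of tumor Tregs that was too rare to test, had a UMI in 5.8% of thinned Tregs and 1.6% of other CD8-negative T cells.

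Of 11 tested genes for suppressive molecules, Ctla4, Nt5e and Il2ra were higher and none was lower. Gzmb, which encodes granzyme B, was at 530 ± 173 CPM in Tregs and 425 ± 216 CPM in the other class, and the log2 fold change of Areg, the tissue repair factor amphiregulin, was 1.22 ± 0.43 (edgeR adjusted p = 0.105). Il10 was seen in 9.7% of thinned Tregs and 5.9% of other CD8-negative T cells.

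The helper and cytotoxic list had 5 of 10 tested genes lower (Ifng, Ccl3, Ccl4, Ctsw and Klrd1) and none higher, with a median of −1.21. Xcl1, a chemokine that attracts cross-presenting dendritic cells, is in none of the lists. It ranged over the 8 mice from 0 to 169 CPM in Tregs (median 29.8) and from 106 to 1541 CPM in the other class, was lower in Tregs in each mouse, and had a log2 fold change of −4.01 ± 0.55 (edgeR adjusted p = 0.00254). The protease gene Ctsw was at 47.2 ± 22.6 CPM against 228 ± 118, the killer receptor gene Klrd1 at 51.1 ± 33.7 against 232 ± 115, and Prf1, which encodes perforin and is in none of the lists, at 20.2 ± 15.9 against 109 ± 63.1 CPM. Bcl2, a survival gene, fell by 2.23 on the log2 scale. Chil3, Ly6c2 and Lyz2, also named above as lower in Tregs, averaged 645, 1810 and 10394 CPM in myeloid cells. The other class held more RNA of NK cell markers in 7 of 8 mice, with 266 to 1441 CPM against 13.0 to 483 CPM in Tregs, and more of γδ T cell markers in all 8 mice, with 23.8 to 332 CPM against 0 to 4.90 CPM. The part of NK and γδ T cells in these falls was not tested.

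**Figure D2:**
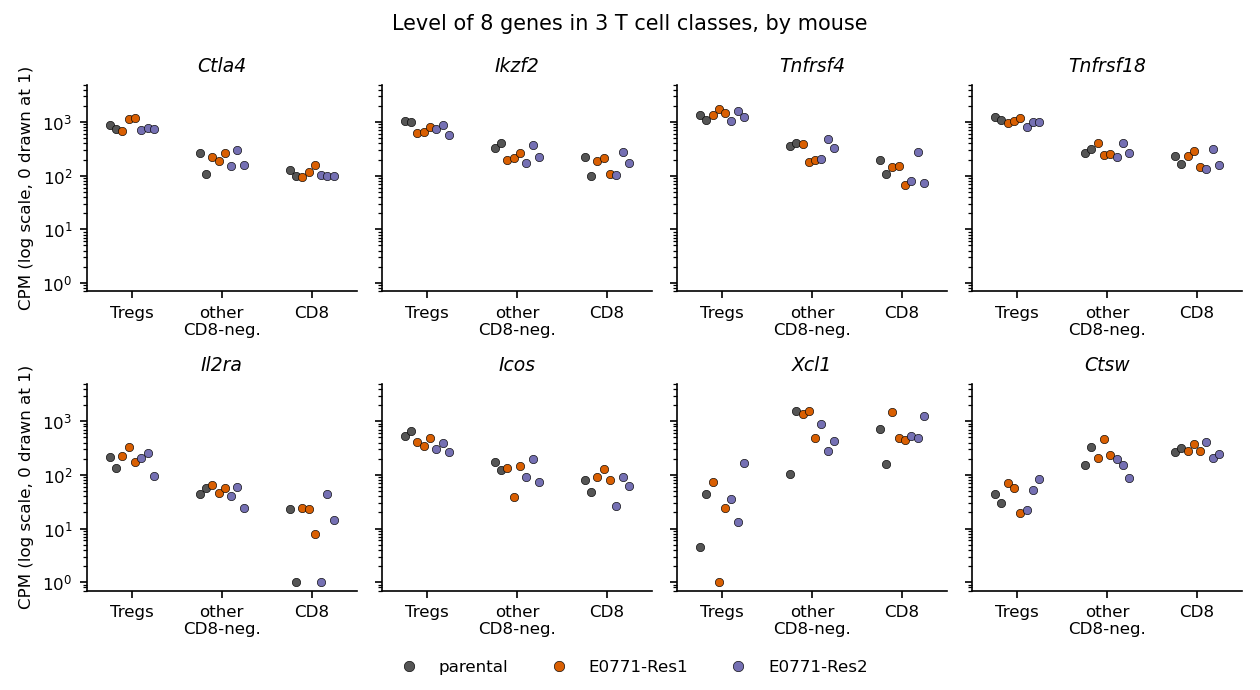
Level of 8 genes in Tregs, other CD8-negative T cells and CD8 T cells, where each dot is 1 mouse, the y axis is in CPM on a log scale, and a level of 0 is drawn at 1. Ctla4, Ikzf2, Tnfrsf4 and Tnfrsf18 lie higher in the Tregs of every mouse, and Xcl1 and Ctsw lie lower in Tregs.

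The other lists gave fewer calls or were split. The TNF receptor and NF-κB list had Tnfrsf4, Tnfrsf18, Tnfrsf9 and Cd27 higher among 15 genes and none lower. The interferon list was split, with 5 of 25 genes higher (among them Ifi27l2a, Ly6a, Gbp7 and Psmb9) and 5 lower (Irf7, Isg15, Ifit1, Usp18 and Oasl2) and a median of −0.17; in T cells low in the macrophage markers described next, 2 of 19 were higher (Ly6a and Gbp7) and none was lower, with a median of 0.17. The cell cycle list had 3 of 12 higher (Stmn1, Tyms and Hmgb2) and none lower, with a median of 1.20. Of 15 genes induced by tissue dissociation and heat shock, 6 were lower in Tregs (Fos, Fosb, Jun, Junb, Ier2 and Dusp1), and of 13 glycolysis and hypoxia genes Gpi1, Pgk1 and Hif1a were higher. Of 8 genes of resting cells, Klf2, Bcl2 and Foxp1 were lower and Cd27 was higher. Among chemokine and homing receptors, Cxcr3 and Itgb7 were higher and Ccr1, Cxcr6 and Itgb1 lower of 13 tested; of 12 T cell receptor response genes, Cd5, Tox, Dusp5 and Icos were higher and Cd69 and Dusp2 lower. In the IL-2 and STAT5 list, 1 of 11 genes was higher and 3 were lower (Socs3, Bcl2 and Mcl1), and in the lipid list Fabp5 was lower.

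The classes also differed in Cd4. A Cd4 UMI was found in 45.7% to 92.0% of Tregs and in 15.0% to 35.3% of the other CD8-negative T cells, according to the mouse. Among Tregs the share was 92.0% and 75.0% in the parental mice, above all resistant mice. The E0771-Res1 mice had 68.4%, 61.5% and 70.8% and the E0771-Res2 mice 68.0%, 45.7% and 57.7%. In the other class the parental mice, at 28.6% and 33.3%, lay within the range of the resistant ones. These shares were not tested between tumors. With a Cd4 UMI required in both classes, which 7 mice allowed, 57 of 2327 genes (2.45%) were called, 52 of them shared with the full set. Of the 235 genes higher in Tregs 214 could be tested, with 29 called and a median log2 fold change of 0.52 after 0.76. Of the 271 lower genes 197 could be tested, with 23 called and a median of −0.65 after −0.77. Ctla4 (1.21), Tnfrsf4 (1.21), Icos (0.87), Ikzf2, Tnfrsf18, Tnfrsf9 and Il2ra remained higher and Ctsw (−1.76) lower. Batf (0.43), Maf (0.19), Cxcr3 (0.66), Rora (0.58), Il1r2 (0.75), Izumo1r (0.56), Gata3 (0.47) and Ifng (−1.25) no longer passed. Neither did Hist1h1b, Hist1h2ae and Stmn1, although their log2 fold changes were larger, at 3.12, 2.69 and 2.33. Of 11 cell cycle genes none was called, with a positive sign in all and a median of 1.38. Xcl1, Prf1, Klrd1, Nrp1 and Nt5e were too low to test.

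Macrophage RNA moved with this comparison. The 10 monocyte and macrophage markers of the list summed to 5369 to 14709 CPM in the other CD8-negative T cells and to 1985 to 9166 CPM in Tregs, and Lyz2 was itself called lower in Tregs. Genes that were at least 4 times higher in myeloid cells than in CD8 T cells made up 6.63% of the genes tested, 1.28% of those called higher and 41.3% of those called lower in Tregs. When only T cells in which 9 of these markers (without Csf1r) summed to under 4000 CPM were kept, 69 of 1564 genes (4.41%) were called, and 63 of them had been called before with the same sign. Ctla4 (log2 fold change 1.50), Il2ra (1.31), Tnfrsf4 (1.39), Tnfrsf18 (1.18), Tnfrsf9 (1.14) and Ikzf2 (1.03) remained higher, and Xcl1 (−5.48) and Ctsw (−2.82) lower. Of 11 effector and tumor Treg genes tested there, 2 were called (Icos and Il1r2), with a median of 0.68 beside 0.00 for all genes. Batf (0.68), Maf (0.73), Cxcr3 (0.60) and Rora (0.59) no longer passed, and Gata3 was too low to test. Nrp1 was not among the genes called lower there. Cxcl10 (−0.66) and Hist1h2ae (1.56) were no longer called, while Hist1h1b (1.65) was. Nor was any of 8 cell cycle genes called, which all had a positive sign, with a median of 0.80 and Stmn1 at 1.45. Lyz2 was one of the markers that set the limit, so its level there is not compared. Without T cells that held 2 or more UMIs of Fscn1, a gene taken up below, 457 of 3149 genes (14.5%) were called.

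Against CD8 T cells, 658 of 3046 genes (21.6%) were called, 345 (11.3%) higher and 313 (10.3%) lower in Tregs. Cd4 was at 152 ± 35.8 CPM against 3.67 ± 4.33. Ctla4 rose by 2.81 ± 0.12, Tnfrsf4 by 3.25 ± 0.18 and Il2ra by 3.23 ± 0.26 on the log2 scale. The tetraspanin gene Cd81 (202 ± 42.0 against 14.8 ± 14.1 CPM), Cxcr3 (92.6 ± 39.5 against 13.6 ± 5.46 CPM), the transcription factor genes Maf (log2 fold change 2.84) and Rora (2.51), Arhgap31 and Neb completed the 10 largest rises. The largest falls were in the NK receptor gene Klrc1 (3.35 ± 3.07 against 222 ± 37.4 CPM, log2 fold change −5.85), Nrgn (−5.13), Cd160 (−5.00), Prf1 (−4.47), Xcl1 (−4.26), Klre1 (−3.98), Klrd1 (−3.97) and Ifng (−3.56), followed by Jaml and Klrk1. All of these passed the edgeR test at an adjusted p of at most 0.000702, the value for Maf.

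Of 11 Treg signature genes tested, 8 were higher and 2 were lower than in CD8 T cells. The lower ones were Nrp1 and Il2rb, the β chain of the IL-2 receptor, at 202 to 431 CPM in Tregs and 365 to 671 CPM in CD8 T cells. The effector and tumor Treg list had 11 of 15 higher, and Lag3 and Pdcd1, inhibitory receptor genes that are high in exhausted CD8 T cells, lower. The TNF receptor and NF-κB list had 11 of 14 genes higher and none lower, with a median of 0.75, including Nfkb1, Nfkb2, Rel, Relb, Nfkbia, Nfkbie and Traf1. The interferon list had 16 of 24 genes higher and none lower (median 0.72), against a median of all genes at 0.00 to 2 decimals. The helper and cytotoxic list had 9 of 11 lower (median −1.18). Of the suppressive list 5 of 10 were higher (Ebi3, Ctla4, Fgl2, Areg and Il2ra) and Lag3 was lower.

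Of 18 cell cycle genes 2 were lower in Tregs (Mcm3 and Mcm6), a share close to the 10.3% of all genes, and none was higher. Their signs were negative but for 1 gene, with a median of −0.40. Mki67 was at 230 ± 115 CPM in Tregs and 197 ± 121 CPM in CD8 T cells. C1qbp, which encodes a mitochondrial receptor for complement C1q, was the 1 member of the lipid and C1q receptor list that passed, at 59.4 ± 21.1 CPM in Tregs against 114 ± 29.0 CPM in CD8 T cells. Among 10 homing genes, 6 were higher, among them Ccr2, Ccr7, Cxcr3, Selplg and Itgb7, and Cxcr6, Itga4 and Itgb1 lower. The remaining lists were mixed: 2 higher and 1 lower of 7 for resting cells, 3 and 2 of 11 for IL-2 and STAT5, 4 and 4 of 12 for the T cell receptor response, 2 and 2 of 11 for glycolysis and 1 and 3 of 14 for dissociation and heat shock. Myeloid-type genes, at least 4 times higher in myeloid cells than in CD8 T cells, numbered 136 of the 3046 genes tested (4.46%) and 62 of the 345 called higher in Tregs. In T cells low in macrophage markers, 535 of 2353 genes (22.7%) were called, 450 of them shared with the full set. Of 8 Treg signature genes tested there, 7 were higher and Il2rb was lower, and Nrp1 was not among those tested. Of the suppressive list, 3 of 8 were then higher (Ctla4, Areg and Il2ra), Fgl2 was at 0.90 without passing, and Ebi3 and the homing gene Ccr2 were too low to test. Without the T cells high in Fscn1, 584 of 2756 genes (21.2%) were called.

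**Figure D3:**
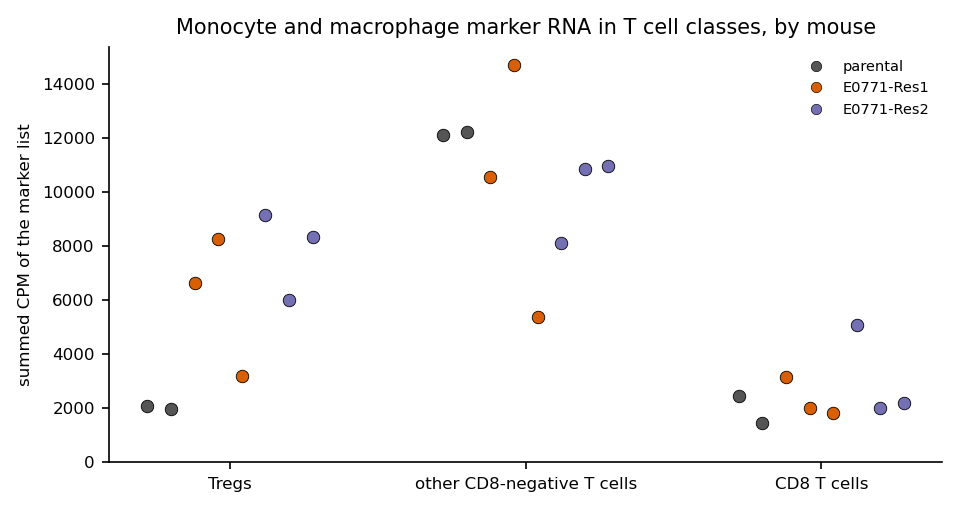
Summed level of 10 monocyte and macrophage markers in 3 T cell classes, where each dot is 1 mouse and the y axis is in CPM. Parental Tregs (2105 and 1985 CPM) lie below the Tregs of all 6 resistant tumors (3187 to 9166 CPM). Other CD8-negative T cells of parental tumors (12109 and 12214 CPM) instead lie within the range of those of resistant tumors (5369 to 14709 CPM).

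The third question was whether Tregs of resistant tumors differed from those of parental tumors. Here macrophage RNA has to be given first, because its level in Tregs separated the groups. The 10 markers summed to 2105 and 1985 CPM in parental Tregs, while the E0771-Res1 mice had 6634, 8250 and 3187 CPM and the E0771-Res2 mice 9166, 6014 and 8322 CPM, and their part in the differences below was not tested. Without Csf1r, which the gate had used, the other 9 markers summed to 2078 and 1940 CPM in parental and 3167 to 9140 CPM in resistant Tregs. Lyz2, Apoe, C1qa or C1qb was the most abundant, according to the mouse, and Adgre1 was at 0 in parental replicate 3 and Fn1 in 3 resistant mice. The share of Tregs at 4000 CPM or more was 8.0% and 37.5% for the parental, 31.6%, 30.8% and 16.7% for the E0771-Res1 and 48.0%, 25.7% and 46.2% for the E0771-Res2 mice.

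Of 4101 genes tested, 53 (1.29%) passed between the 6 resistant and the 2 parental mice, 34 (0.829%) higher and 19 (0.463%) lower in resistant tumors. E0771-Res1 alone gave 28 genes (0.683%), 18 higher (0.439%) and 10 lower (0.244%), and E0771-Res2 gave 56 (1.37%), 45 higher (1.1%) and 11 lower (0.268%). These counts depended on single mice and on depth: without parental replicate 1 there were 7 genes between resistant and parental tumors, without parental replicate 3, with its 8 Tregs, 34, without E0771-Res1 replicate 1 32, with 2 Foxp3 UMIs required 4, and with cells thinned to 2000 UMIs edgeR called 0 of 324 genes, with 14 at an unadjusted p under 0.05. The comparisons share the parental mice. The mice of the groups did not overlap in 14.9% of all genes for resistant against parental tumors, in 27.5% for E0771-Res1, in 28.1% for E0771-Res2 and in 10.9% between the lines. None of the 17 tested Treg signature genes and none of the 18 effector and tumor Treg genes passed, with medians of −0.06 and −0.20. Ctla4 was at 868 ± 224 CPM in resistant Tregs and at 896 and 746 CPM in parental Tregs (log2 fold change 0.07 ± 0.20, edgeR adjusted p = 0.959). Tnfrsf4 differed by 0.22 ± 0.18, Tnfrsf18 by −0.20 ± 0.18 and Ikzf2 by −0.53 ± 0.19 on the log2 scale, with adjusted p of 0.774, 0.783 and 0.197.

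The genes that rose are mostly known from myeloid cells. Fcer1g, a signalling adaptor of Fc receptors, reached 533 and 537 CPM in parental Tregs, while the E0771-Res1 mice had 2008, 1344 and 1441 CPM and the E0771-Res2 mice 2097, 1251 and 1807 CPM, without overlap (log2 fold change 1.67 ± 0.22, edgeR adjusted p = 0.000138). By the rule for naming genes between tumors (called, a log2 CPM of 6 or more on average, no overlap between groups), the largest rises included Slamf9 (3.43 ± 0.72), the lipoprotein lipase gene Lpl (2.61 ± 0.56), the lysosomal enzyme gene Hexa (2.60 ± 0.53) and the receptor gene Cd300c2 (2.20 ± 0.40), with edgeR adjusted p of 0.00518 to 0.0182. Slamf9 rested on 2 UMIs in all parental Tregs. Of the 34 genes, 20 (58.8%) were at least 4 times higher in myeloid cells than in CD8 T cells, against 5.83% of the genes tested, and none of the 19 that fell were.

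In Tregs under 4000 CPM of macrophage markers these rises shrank. Of the 34 genes, 26 could be tested there, all with the same sign. Leaving out Lyz2, which helped to set the limit, the median log2 fold change of the other 25 went from 1.35 to 0.63, with Fcer1g at 0.78 and Cd300c2 at 0.86. The falls kept their size, with a median of −1.50 after −1.55 over the 17 of 19 genes that could be tested, but none of them passed. Of 2605 genes 1 (0.0384%) remained called, Nfkbia, with 140 genes at an unadjusted p under 0.05. For E0771-Res1 none was called, with 118 at an unadjusted p under 0.05 in edgeR, and for E0771-Res2 Nfkbia and Tbc1d4 were (0.0768%).

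Nfkbia encodes IκBα, the NF-κB inhibitor that NF-κB itself induces. Parental Tregs had 672 and 1194 CPM, the E0771-Res1 mice 1771, 1759 and 1745 CPM and the E0771-Res2 mice 1758, 1766 and 1442 CPM. All resistant mice were above both parental mice, and the log2 fold change was 0.96 ± 0.20 (edgeR adjusted p = 0.0097) in all Tregs and 1.12 ± 0.22 (adjusted p = 0.0255) in those low in macrophage markers. Without the Tregs high in Fscn1 described next it was 0.88 ± 0.23 and did not pass (adjusted p = 0.0699). The RNA was spread over the cells, with a UMI in 32 of the 33 parental Tregs. It was the 1 member of 17 in the TNF receptor and NF-κB list that passed, and the median of that list was −0.05, or 0.27 over 13 genes in Tregs low in macrophage markers. Of 15 dissociation and heat shock genes none passed, 13 had a positive sign and their median was 0.22, beside 0.01 for all genes. In Tregs low in macrophage markers, where Nfkbia was the gene called, that median was 0.78 (0.89 for E0771-Res2), again with none passing, beside 0.00 for all genes. The part of dissociation and heat shock in the difference of Nfkbia was not tested.

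The genes that fell behaved differently, and many rested on few cells. Fscn1, which encodes the actin bundler fascin, was at 206 and 194 CPM in parental Tregs and at 19.6 to 106 CPM in resistant ones (log2 fold change −2.36 ± 0.45, edgeR adjusted p = 0.0117). In parental replicate 1 its 46 UMIs came from 4 cells, of which 2 held 22 each, and in replicate 3 all 13 UMIs came from 1 cell. Those 3 parental Tregs also held 18 to 58 UMIs of Tbc1d4, 4 to 21 of Ramp3, 20 to 48 of Ccr7, 187 to 268 of Cst3 and 3 to 17 of Cd83, along with 1 to 8 UMIs of Foxp3 and 2 to 45 of Cd3. Fscn1, Ccr7, Cst3 and Cd83 are known together from mature dendritic cells. Of H2-Aa, an MHC class II gene that such cells also express, the 3 held 143, 2 and 7 UMIs. Another 7 Tregs with 2 or more Fscn1 UMIs were spread over the 6 resistant tumors. They held many of the same genes, with 1 to 40 UMIs of Ccr7, 2 to 13 of Cd83, 4 to 47 of Tbc1d4 and 0 to 143 of H2-Aa. Fscn1 (2 to 14), Cst3 (22 to 159) and Ramp3 (0 to 5) reached lower maxima than in the 3 parental cells. Their total was 7080 to 24134 UMIs per cell, against 17302 to 26121 in those 3.

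Leaving out all T cells with 2 or more Fscn1 UMIs (10 of the 213 Tregs) left the size of the rises nearly as it was and lowered that of most falls. The 34 genes that rose were all tested and 19 were called again, with a median of 1.44 after 1.49. Of the 19 genes that fell, 14 could be tested, 3 were called, and the median of these 14 went from −1.50 to −0.85. Cst3 turned from −1.19 to 0.61, whereas Trpm7 was at −1.76 after −1.62 and no longer passed. Fscn1, Tbc1d4, Ramp3, Serpinb6b and Actn1 were then too low to test. In all, 30 of 3815 genes (0.786%) were called, 25 higher (0.655%) and 5 lower (0.131%), with 8 (0.21%) for E0771-Res1 and 29 (0.76%) for E0771-Res2. Ramp3, Cst3 and Trpm7 were singled out after their values were seen.

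**Figure D4:**
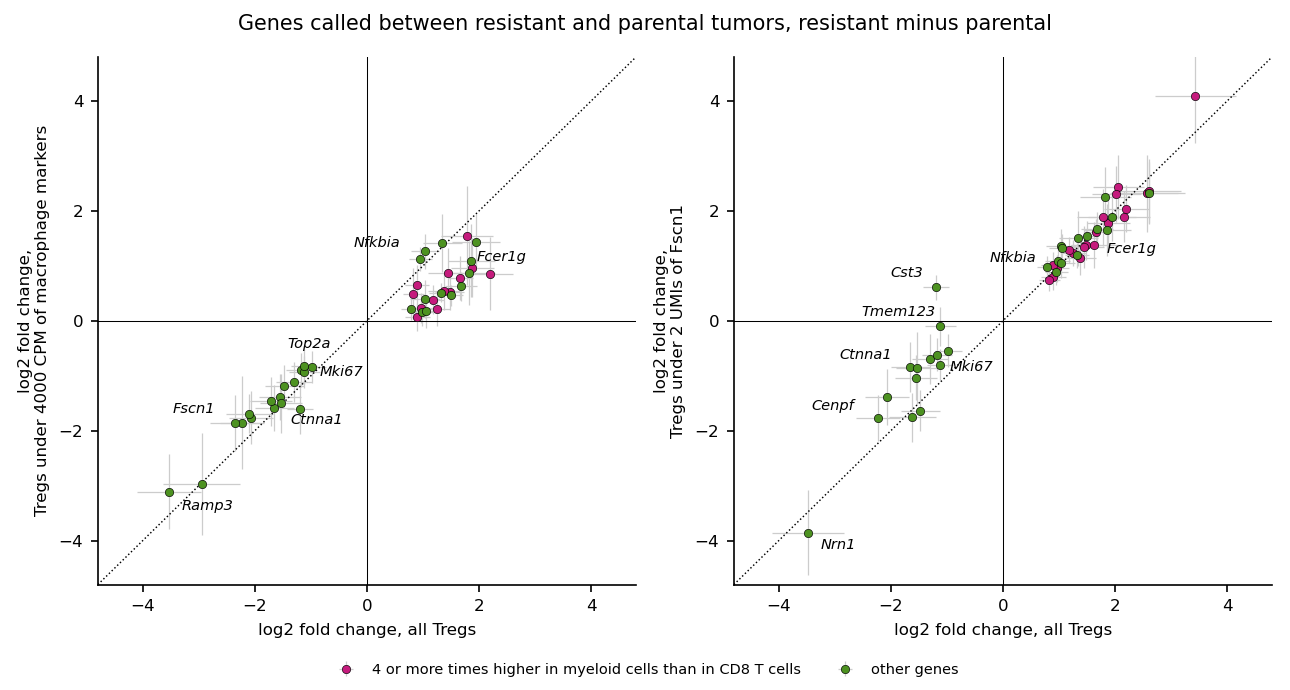
Log2 fold change between resistant and parental tumors in all Tregs (x axes) against that in Tregs under 4000 CPM of macrophage markers (left y axis) and in Tregs under 2 UMIs of Fscn1 (right y axis), for the called genes that each panel's cells allowed to be tested, where bars are standard errors, the dotted line marks equal values and colour marks genes at least 4 times higher in myeloid cells than in CD8 T cells. Most rises shrink on the left (median 0.63 after 1.35, leaving out Lyz2, one of the markers behind the limit), with Nfkbia, Rilpl2 and Lilr4b as exceptions, and most falls shrink on the right (median −0.85 after −1.50), with Nrn1, Lig1 and Trpm7 as exceptions.

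Among the other genes that fell, Nrn1, which encodes the surface protein neuritin, reached 76.1 and 284 CPM in parental Tregs, while the E0771-Res1 mice had 9.96, 8.14 and 53.9 CPM and the E0771-Res2 mice 8.79, 8.66 and 3.93 CPM. The groups did not overlap (log2 fold change −3.48 ± 0.64, edgeR adjusted p = 0.0097; −3.86 ± 0.78 and 0.0398 without the cells high in Fscn1). It rested on 17 UMIs in 4 cells of parental replicate 1 and on 19 UMIs in 1 cell of replicate 3. Without parental replicate 3, the mouse that a minimum of 10 Tregs also removed, its log2 fold change was −2.48 and did not pass (edgeR adjusted p = 0.179). Ctnna1, which encodes α-catenin, reached 143 and 119 CPM in parental Tregs, while the E0771-Res1 mice had 65.7, 57.0 and 49.0 CPM and the E0771-Res2 mice 22.0, 34.6 and 31.4 CPM (−1.65 ± 0.35). Without the cells high in Fscn1 its difference was −0.84 ± 0.45 and no longer passed. Tbc1d4 was at 457 and 269 CPM in parental and 57.2, 34.6 and 35.4 CPM in E0771-Res2 Tregs (−3.12 ± 0.52, edgeR adjusted p = 0.0171). Nearly all of its 120 parental UMIs lay in the 3 cells high in Fscn1. The 2 such cells of replicate 1 held 58 and 43 and that of replicate 3 held 18, so this difference rested on those cells.

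Division genes had mostly negative fold changes. Of 21 cell cycle genes tested, 3 fell in resistant tumors (Mki67, Top2a and Cenpf), none rose, 20 had a negative sign, and the median log2 fold change was −0.68. Mki67, the marker of dividing cells, reached 403 and 388 CPM in parental Tregs, while the E0771-Res1 mice had 163, 204 and 113 CPM and the E0771-Res2 mice 268, 195 and 106 CPM, without overlap (−1.18 ± 0.26, edgeR adjusted p = 0.0218). Top2a, the topoisomerase of dividing cells, was at 493 and 358 CPM against 103 to 281 CPM (−1.12 ± 0.23, adjusted p = 0.0097). A Mki67 UMI was found in 40.0% and 37.5% of parental, 36.8%, 15.4% and 16.7% of E0771-Res1 and 32.0%, 25.7% and 26.9% of E0771-Res2 Tregs, and with cells thinned to 2000 UMIs in 20.0% and 25.0% of parental Tregs against 13.0% to 19.4% of resistant ones. In Tregs low in macrophage markers the median of the list stayed at −0.64, but none of 19 genes passed, and without the cells high in Fscn1 Mki67 stood at −0.62 ± 0.30 and Top2a at −0.80 ± 0.28 without passing, whereas Cenpf was at −1.77 ± 0.41 and passed (adjusted p = 0.036). In all Tregs Cenpf, which encodes a kinetochore protein, differed by −2.23 ± 0.39, and its 72 parental UMIs came from 5 cells, 36 of them from 1 cell. Kif11, a mitotic motor gene, was at 121 and 134 CPM against 16.3 to 57.2 CPM (−2.07 ± 0.39, adjusted p = 0.00529), and was at −1.39 ± 0.51 and not called without those cells.

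Of the remaining lists, the helper and cytotoxic list had 1 of 10 genes higher (the chemokine gene Ccl3, 1.95 ± 0.42), the IL-2 and STAT5 list 1 of 13 (Socs3, 1.82 ± 0.45) and the homing list 1 of 14 lower (Itga4, −1.30 ± 0.32). No gene passed among 25 of the interferon response, 13 of the T cell receptor response, 14 suppressive molecules, 15 of glycolysis and hypoxia, 9 of lipid handling or 7 of resting cells. In 1 edgeR fit over Tregs and other CD8-negative T cells, the change between tumors differed by class in 17 of 4741 genes (0.359%) for resistant against parental tumors, 23 (0.485%) for E0771-Res1 and 11 (0.232%) for E0771-Res2.

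**Figure D5:**
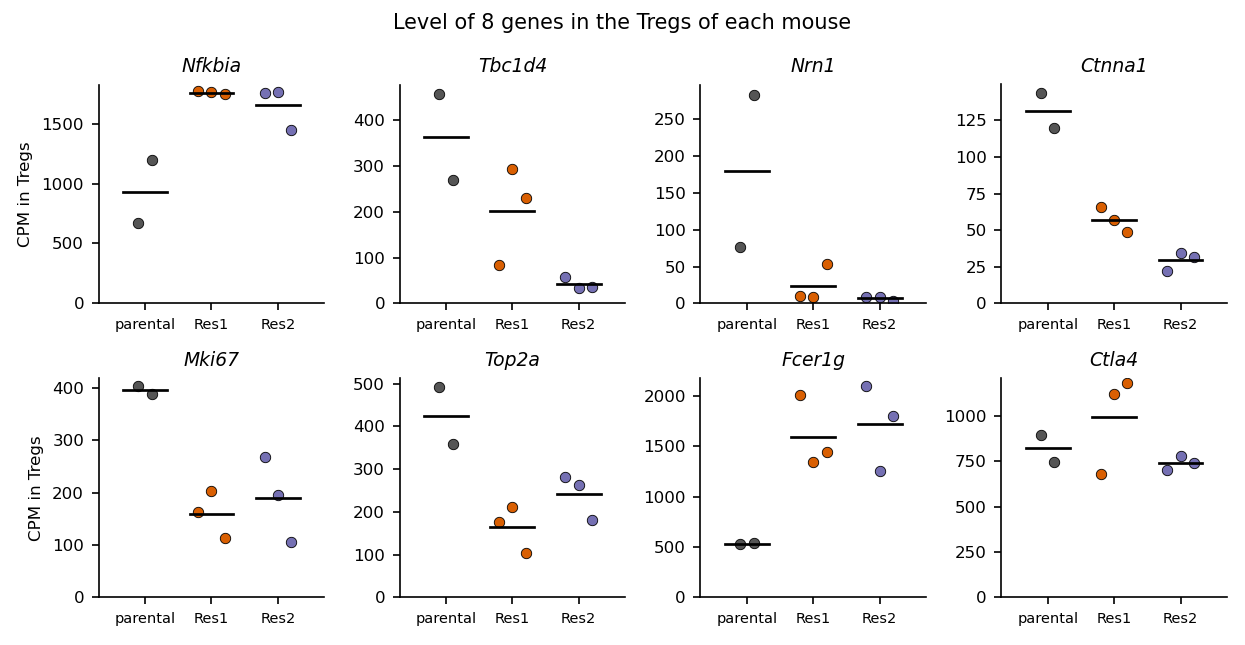
Level of 8 genes in the Tregs of each mouse, where dots are mice, black lines group means and the y axes are in CPM. Nfkbia and Fcer1g are lower, and Nrn1, Ctnna1, Mki67 and Top2a higher, in both parental mice than in all 6 resistant mice, Tbc1d4 separates parental tumors from E0771-Res2 and Ctla4 overlaps.

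By line and under the same rule, the largest rises in E0771-Res1 Tregs were in Slamf9, Ralb, Pld4, Cd300c2 and Alox5ap (log2 fold changes of 3.62, 3.05, 2.12, 1.99 and 1.98) and the largest falls in Cenpf, Kif11, Fscn1, Serpinb6b and Serpinb9 (−2.68, −2.65, −2.44, −2.26 and −2.14). In E0771-Res2 Tregs they included the osteopontin gene Spp1, Slamf7, Slamf9 and Pla2g7 (3.73, 3.39, 3.23 and 3.20) and, among the falls, Nrn1, Tbc1d4, Fscn1, Ctnna1 and Mllt3 (−4.24, −3.12, −2.28, −2.12 and −1.79). Between the lines 1 gene of 4101 passed (0.0244%). It was Trem2, a lipid receptor gene of macrophages, at 37.8, 40.7 and 14.7 CPM in E0771-Res1 and 149, 86.6 and 138 CPM in E0771-Res2 Tregs (2.00 ± 0.37, edgeR adjusted p = 0.025), and it was too low to test in Tregs poor in macrophage markers. Clspn (1.64) on one side and Cd74 (−1.13), H2-Aa (−1.08) and Scfd1 (−1.56) on the other were among those with the next smallest p and did not pass.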

How the data were processed

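The authors deposited, for each mouse, a filtered 10x matrix of whole UMI counts for 32285 genes and 9 multiplexing tags (Cell Ranger 6.1.2 per the file headers, with Seurat and mm10 named in the submitters' processing notes). CD45+ cells had been sorted, tagged, pooled and run on a 3′ v3.1 kit. Deposited gene counts summed to 5036667 to 18894504 UMIs per mouse. Of 11430 barcodes, 10605 (92.8%) had 500 to 6000 genes and under 10% mitochondrial UMIs. The study's stated cell total also covers a parental mouse that was not analysed here, so the totals were not compared.

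Tregs and the 2 other T cell classes were set by the UMI limits given above. Doublets were scored with Scrublet, which called 53 cells, too few to have worked, and none of the Tregs; no cell was removed on that score, and leaving out the highest 5% of scores was an alternative. UMIs were summed by mouse and class (at least 5 cells) and tested with edgeR 4.0.16 (R 4.3.3; TMM, filterByExpr, robust quasi-likelihood, Benjamini-Hochberg), with the mouse as a block between classes and all 3 groups in 1 fit between tumors. The standard error is the log2 fold change over the root of F. Levels are CPM of all gene UMIs of a class in a mouse. Shares were compared by exact permutation over mice with scipy 1.17.1. The fits were tested on simulated counts with 200 genes changed by 1.5 on the log2 scale: 82.0%, 86.5% and 57.5% were recovered for Tregs against other CD8-negative T cells, against CD8 T cells and for resistant against parental tumors, with 3, 11 and 8 false calls. All genes shared 1 common dispersion there, and their means were pooled over the mice. RNA gathered in single cells was not simulated, so these figures do not give the error rate in the real data.

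Genes were named by rule: between classes the 10 per direction with the largest log2 fold change among those called that averaged a log2 CPM of 5 or more and had the same sign in every mouse; between tumors the 5 per direction averaging 6 or more and without overlap, or otherwise the 3 with the smallest p; with them the members of 14 gene lists and the Treg markers. The members, lists and rules were chosen with earlier results of these data known. The limits on macrophage markers and on Fscn1, the tests of other T cells between tumors and the test of the difference between classes were chosen after seeing the data. Nothing in the labels says whether tumors were processed apart, beyond 1 mouse each, and p-values measure the spread between these mice. Some results that the naming rule or the lists would give are not reported here.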

Additional observations from a re-analysis of the deposited data

Results flagged for a closer look

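The same contrasts were made in the other CD8-negative T cells of the same mice, and the difference of the differences was tested in 1 edgeR fit over both classes with the mouse as a block (Benjamini-Hochberg adjusted p). Of 4741 genes, 17 (0.359%) differed between the classes for resistant against parental tumors, 23 (0.485%) for E0771-Res1 and 11 (0.232%) for E0771-Res2. In the other CD8-negative T cells alone, 0 of 4657 genes passed in edgeR in any of these 3 contrasts, with 238, 256 and 287 at an unadjusted p under 0.05. Between the lines, however, 20 genes (0.429%) passed in these cells, with 398 at an unadjusted p under 0.05. The difference between the classes passed in 0 of 4741 genes for that contrast.

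Some of the genes named above as higher in resistant Tregs differed in this test. For resistant against parental tumors, the difference in log2 fold change (Tregs minus other CD8-negative T cells) was 4.10 for Slamf9, 2.56 for Hexa and 2.60 for Cd300c2. For E0771-Res1 it was 4.50 for Slamf9, 3.95 for Ralb, 2.72 for Cd300c2 and 2.76 for Alox5ap, and for E0771-Res2 it was 3.11 for Slamf7 and 3.71 for Slamf9. Of these genes, Cd300c2 was at 339 and 302 CPM in the other CD8-negative T cells of parental tumors against 49.3 and 29.8 CPM in parental Tregs, and Alox5ap at 423 and 457 CPM against 49.3 and 29.8 CPM. The sum of the 10 macrophage markers was lower in both parental than in all resistant mice in Tregs, but not in the other CD8-negative T cells, and its part in these differences was not tested.

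In the other direction, the difference was −5.57 for Kif11 and −3.40 for Serpinb6b in E0771-Res1 and −2.81 for Ctnna1 in E0771-Res2. Kif11 was at 4.40 and 0 CPM in the other CD8-negative T cells of parental tumors and at 17.0, 23.1 and 39.9 CPM in those of E0771-Res1. Ctnna1 was at 35.2 and 32.6 CPM there and at 39.9, 54.0 and 63.5 CPM in those of E0771-Res2. The 4.40 CPM of Kif11 stood for 1 UMI, in parental replicate 1, so the size of its difference is imprecise.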

How the results depend on the processing

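Tregs per CD8 T cell and the Treg share of T cells stayed higher in resistant tumors in every alternative tried. The difference in the Treg share of CD45+ cells turned to −0.225 points with cells thinned to 2000 UMIs. That in the share of CD8-negative T cells turned to 0.0804 with all deposited cells and 0.621 without T cells high in Fscn1. Leaving out 1 mouse gave differences of −0.140 to 0.766, 6.80 to 8.74, −4.78 to 2.11 and 0.992 to 1.37 for the shares of CD45+, T and CD8-negative T cells and the ratio.

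The number of genes tested changed with the setting and is given beside the calls. Against other CD8-negative T cells, 506 of 3212 were called in the main fit and 815 of 13537 with no filter. With Cd8 and Csf1r at 0 it was 240 of 2019, and thinned 74 of 511. A required Cd4 UMI gave 57 of 2327 and low macrophage markers 69 of 1564 (355 to 498 leaving out 1 mouse). Against CD8 T cells, 658 of 3046 were called in the main fit and 1059 of 13247 with no filter. With 2 Foxp3 UMIs it was 350 of 2296 and thinned 56 of 192 (486 to 684 leaving out 1 mouse). For resistant tumors, E0771-Res1 and E0771-Res2 against parental, and between the lines, no filter gave 120, 77, 104 and 26, at least 10 cells per mouse 34, 15, 30 and 4, 2 Foxp3 UMIs 4, 4, 0 and 0, Cd8 and Csf1r at 0 1, 4, 3 and 0, thinning 0 in each, low macrophage markers 1, 0, 2 and 0, and low Fscn1 30, 8, 29 and 0. Between tumors the main fit tested 4101 genes, no filter 12468 and at least 10 cells per mouse 4639. It was 2846 with 2 Foxp3 UMIs, 2799 with Cd8 and Csf1r at 0 and 324 thinned. Low macrophage markers left 2605 and low Fscn1 3815. Removing high doublet scores gave 35 of 3871 for E0771-Res2, and DESeq2 gave 3 of 4101 between the lines. Leaving out 1 mouse gave 7 to 75, 8 to 32, 4 to 81 and 0 to 13. The lowest 3 came without parental replicate 1 (7, 8 and 4); without parental replicate 3 they were 34, 15 and 30, without E0771-Res1 replicate 1 the first 2 were 32 and 16, and without E0771-Res2 replicate 1 the E0771-Res2 count was 20. Causes were not tested.

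The replicate block gave 51, 28, 59 and 5 genes. Mice with the same number did not deviate together (r of −0.0519 to 0.0160 over 7 pairs), so the numbers share only a label. The small Ctla4 difference between resistant and parental tumors turned to −0.0087 with 10 cells per mouse, −0.0446 with 2 Foxp3 UMIs, −0.142 thinned and −0.0352 with the replicate block, and was −0.0198 to 0.278 leaving out 1 mouse. With thinning, Tnfrsf18 turned to 0.22, and between the lines Cd74 to 0.36 and H2-Aa to 0.55. With 8 to 57 Tregs per mouse, low genes could not be tested.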
